A study of Mus musculus with 6 samples.

Results

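The ATF4 peak assigned to Kdm6b was set beside the peaks of 9 related histone lysine demethylase genes, Kdm1a, Kdm2a, Kdm2b, Kdm3a, Kdm4a, Kdm4b, Kdm4c, Kdm5a and Kdm5b. The 10 genes were selected on measured values, because Kdm6b was already known to carry one of the strongest peaks of these data, so its scores and ranks are a description and no test was made on them. Their peaks are those that the lists name with one of the 10 gene symbols at any distance from the transcription start site (TSS), and they number 14 of 17462 peaks in 4 lists. The 10 genes are among 21887 protein-coding genes of the mouse reference annotation. ATF4 binding had been mapped by chromatin immunoprecipitation and sequencing (ChIP-seq) in primary mouse embryonic fibroblasts (MEFs) of strain 129S6/SvEvTac, either wild-type (WT) or with loss of GCN2 (GCN2 KO). Cells of each genotype were held for 24 h in complete DMEM (+Leu) or in DMEM lacking leucine (-Leu). Each of the 4 conditions gave 1 library from chromatin pooled over 2 independent experiments, so there is no replicate spread, no difference between conditions could be tested and no p-value is given. The labels do not give the number of embryos behind each genotype, and peak lists hold no measure of GCN2 or of fibroblast markers by which genotype and cell type could be checked.

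Histone lysine demethylases remove methyl groups from the tails of histones. Kdm1a (LSD1) is a flavin-dependent oxidase, and the other 9 carry a JmjC domain that uses iron and 2-oxoglutarate. Kdm6b (JMJD3) removes the repressive methylation of lysine 27 on histone H3 and is known as a gene that cells switch on during inflammation, differentiation and stress. ATF4 is a leucine zipper transcription factor whose translation increases when the kinase GCN2 senses uncharged tRNA during amino acid shortage. It binds as a dimer, often with a C/EBP partner, to the composite element TGATGCAA, which is known from the regulatory regions of amino acid synthesis, amino acid transport and stress genes.

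The Kdm6b site is shown because it was the one place among the 10 genes where TGATGCAA (searched on both strands) lay inside a peak. Its sequence is given over the 282 bases common to its 3 peaks, as the plus strand of GRCm38 (mm10), with TGATGCAA in capitals. Kdm6b is transcribed from the opposite strand. The other TGATGCAA near Kdm6b, which lay in no peak, is given with its 11 flanking bases on each side and beside the peak-bearing copy cut in the same way. The central 101 bases of a WT -Leu peak named Kdm4c are shown as one of the low-scoring peaks of a relative, and they hold no capitals because the element is absent there.
Kdm6b site, chr11:69414395-69414676: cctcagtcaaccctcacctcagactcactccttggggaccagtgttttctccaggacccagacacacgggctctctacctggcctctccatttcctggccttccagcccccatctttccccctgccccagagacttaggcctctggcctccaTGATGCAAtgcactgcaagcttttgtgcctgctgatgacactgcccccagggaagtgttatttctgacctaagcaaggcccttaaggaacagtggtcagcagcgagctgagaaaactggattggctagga
Kdm6b element inside the peaks, chr11:69414536-69414565: tctggcctccaTGATGCAAtgcactgcaag
Kdm6b element outside any peak, chr11:69412346-69412375: tgcagttatcaTGATGCAAagtgcttatca
Kdm4c peak center, chr4:74541485-74541585: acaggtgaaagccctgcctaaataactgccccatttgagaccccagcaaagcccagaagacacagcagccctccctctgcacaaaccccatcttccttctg
The copies of the element near Kdm6b share their 8 core bases, but GC content was 53.3% in the 30 bases inside the peaks and 36.7% in the 30 bases outside them.

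The lists differ in size and in strength, which bears on every rank given here. The WT lists held 4850 peaks with leucine and 6374 without it, and the GCN2 KO lists held 3566 and 2672. Their highest scores were 1499, 2628, 391 and 353 in the same order, while the medians lay at 29 or 30 and the lowest listed score was 13 in each. The peak score is that of the authors' peak caller, is not normalized between libraries and has no stated scale. No sequencing depth is listed from which the error of a score could be judged, and a position without a listed peak is one where nothing passed the authors' false discovery rate of 0.05.

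At Kdm6b, the same position carried a peak in 3 of the 4 lists. The peak scored 187 in WT +Leu, 1791 in WT -Leu and 128 in GCN2 KO +Leu, and no peak was listed there in GCN2 KO -Leu. The score was therefore highest in WT cells without leucine, close together in the leucine-fed cells of both genotypes, and below the reporting threshold in GCN2 KO cells without leucine. By rank within its list, where 1 is the highest score, the Kdm6b peak stood at 35 in WT +Leu, at 5 in WT -Leu and at 19 in GCN2 KO +Leu. The 4 WT -Leu peaks above it were named Ciapin1 (2628), Chac1 (2515), Klhdc4 (2319) and Ubr2 (2249), and the one just below was that of Asns (1787), the asparagine synthetase gene. Of these, the Chac1 and Asns peaks were annotated as promoter in the list, as was that of Kdm6b. The Ciapin1, Klhdc4 and Ubr2 peaks lay at +13002, -21653 and +15388 bp from a TSS.

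**Figure D1:**
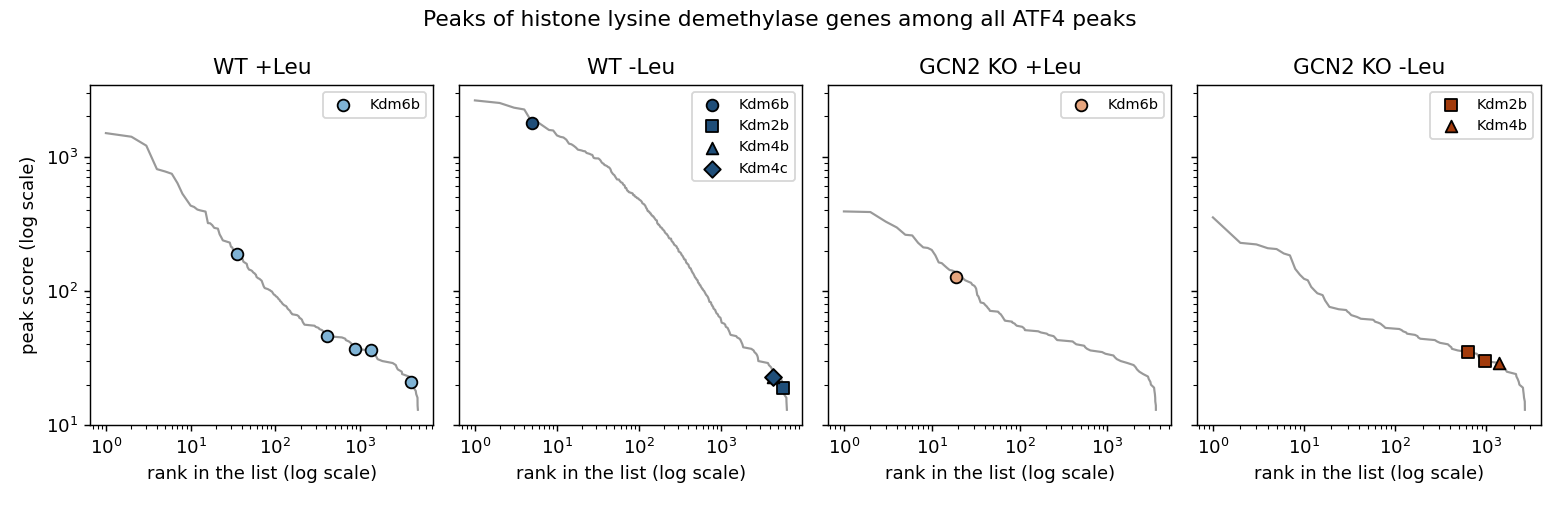
Peak score against rank for all peaks of each list (grey line, both axes logarithmic), with the peaks named for the 10 demethylase genes as filled symbols. The strongest Kdm6b peak sits at rank 35, 5 and 19 in the first 3 panels, while every peak of Kdm2b, Kdm4b and Kdm4c scores between 19 and 35.

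The 3 Kdm6b peaks were centered within 19 bp of each other. Their centers were at 69414540 in WT +Leu, 69414545 in WT -Leu and 69414526 in GCN2 KO +Leu on chromosome 11, at -865, -870 and -851 bp from the Kdm6b TSS used in the lists. The lists annotate all 3 as promoter. TGATGCAA lies at 69414547 to 69414554, and its midpoint was 10.5 bp from the WT +Leu center, 5.5 bp from the WT -Leu center and 24.5 bp from the GCN2 KO +Leu center. The element was thus nearest to the center in the library with the highest score. Neither TGACGTCA, a CRE-type site, nor TGANTCA, an AP-1-type site, occurs in the shared 282 bases, which have a GC content of 56.0%.

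The annotation of the site depends on the transcript. The lists place the Kdm6b TSS at 69413675, whereas the RefSeq model of GRCm38 with the same name begins 1649 bp upstream of the WT -Leu center, with a first exon at 69416017 to 69416194 and a second exon at 69413533 to 69413673. In that model the site lies in intron 1. RefSeq holds 12 transcript models for Kdm6b, which spans 69398508 to 69420367 on the minus strand. The site lies in intron 1 of 4 of them and upstream of the first exon of the other 8, which are all predicted models. The model that starts nearest, a predicted one, begins at 69414359, and the site centers were 181, 186 and 167 bp upstream of it in WT +Leu, WT -Leu and GCN2 KO +Leu. On the opposite strand the long noncoding RNA gene Gm51903 begins 968 bp from the WT -Leu center.

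Beyond this site, 4 further peaks were named Kdm6b, all in WT +Leu. They scored 21 to 46 with a median of 36.5. The nearest, at chr11:69411409-69411709, scored 36 (rank 1331) and lay at +2116 bp in an intron. Its center was 801 bp from the copy of TGATGCAA outside any peak, which is itself 2185 bp from the WT -Leu center. The other 3 peaks scored 21, 37 and 46 at -25015, -59042 and -63680 bp, and all 3 lay in introns of the neighboring gene Dnah2, which encodes an axonemal dynein heavy chain. None of the 4 had a peak of another list within 300 bp of its center and none held TGATGNAA (N is any base, both strands, TGATGCAA included). Of all WT +Leu peaks, 7.77% held TGATGNAA. In GCN2 KO -Leu the nearest peak to the Kdm6b site was 311 kb away, carried the name Per1 and scored 29.

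**Figure D2:**
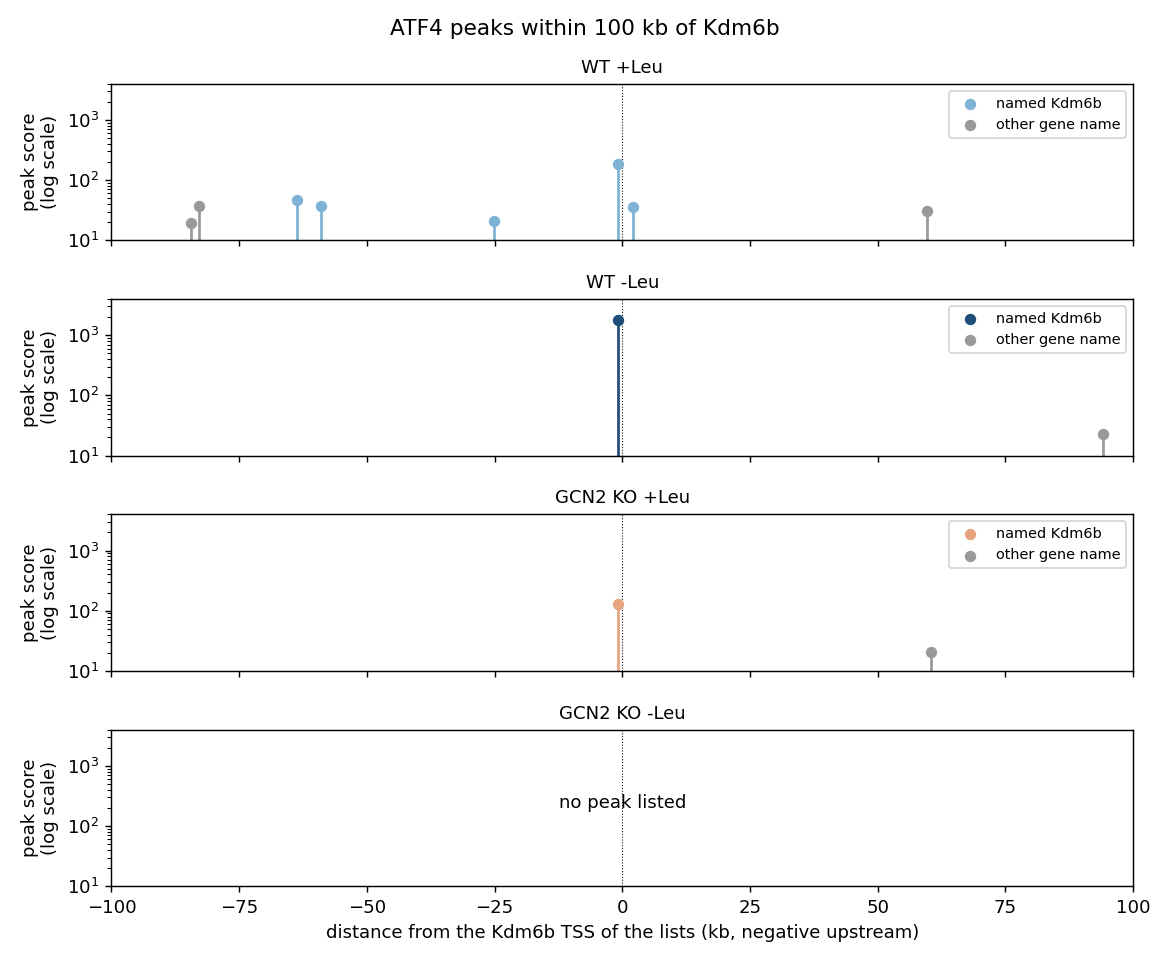
ATF4 peaks within 100 kb of the Kdm6b TSS used in the lists, with distance in kb on the horizontal axis (negative is upstream) and peak score on a logarithmic vertical axis, 1 panel per list. The site at -851 to -870 bp recurs in 3 panels with scores of 187, 1791 and 128, the 4 weak Kdm6b peaks appear in WT +Leu alone, and the GCN2 KO -Leu panel is empty.

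No peak named for a relative scored above 35. Kdm1a, Kdm2a, Kdm3a, Kdm4a, Kdm5a and Kdm5b, 6 of the 10 genes, were named by no peak in any list. No share of all genes over the lists together is given, so nothing is read from this count. At any distance, the genes named by a peak numbered 1 of 10 with leucine and 4 of 10 without it in WT cells, and 1 of 10 with and 2 of 10 without leucine in GCN2 KO cells. For comparison, 14.6%, 18.3%, 11.1% and 8.56% of all protein-coding genes were named by a peak of the same lists. Within 5 kb of the TSS in the lists, Kdm6b was the one gene with a peak in WT +Leu, WT -Leu and GCN2 KO +Leu, and no gene of the 10 had one in GCN2 KO -Leu. The share of all genes was 3.03%, 4.40%, 2.27% and 1.61%. Because the genes were chosen with the Kdm6b peak in view, nothing is read from its own count against these shares. The counts of the relatives are too small to be read against them.

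Kdm2a and Kdm2b remove methylation of lysine 36 on histone H3 and bind unmethylated CpG through a CXXC zinc finger. Kdm2b was named by 1 WT -Leu peak and 2 GCN2 KO -Leu peaks. The WT -Leu peak, at chr5:122951736-122952036, scored 19 (rank 5619), and the GCN2 KO -Leu peaks scored 35 (rank 637) at chr5:122950349-122950649 and 30 (rank 967) at chr5:122929965-122930265. All 3 lay in introns, the first pair in intron 6 and the last in intron 11. Their distances from a TSS in the lists were +36647, +38034 and -29765 bp. The TSS used for the intron 11 peak was not that used for the intron 6 pair. The first was 17 bp and the second 393 bp from the start of a predicted internal RefSeq transcript of Kdm2b, so their distance depends on which start is used. Repeats masked 81.4% of the bases of the intron 11 peak, against 7.31% at the Kdm6b site. Counting peaks within 5 kb of any RefSeq transcript start gave Kdm6b with leucine and both Kdm2b and Kdm6b without it in WT cells, and Kdm6b with leucine and Kdm2b without it in GCN2 KO cells. In the same order, 4.48%, 6.50%, 3.22% and 2.34% of all genes had such a peak. Kdm2a had no peak of its name, and the one peak within 10 kb of the gene scored 26 in WT +Leu and carried the name Adrbk1.

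Kdm4a, Kdm4b and Kdm4c remove trimethylation of lysines 9 and 36 on histone H3. Kdm4b was named by a WT -Leu peak that scored 23 (rank 4264) at chr17:56318250-56318550, 7.65 kb upstream of the TSS within an intron of a neighboring transcript. In GCN2 KO -Leu a Kdm4b peak scored 29 (rank 1393) at chr17:56372325-56372625, in exon 7 of 23. A further 5 peaks in or within 10 kb of Kdm4b carried the name of the microRNA gene Mir6977, with a score of 24 in the fed and scores of 30 and 41 in the deprived WT cells, and of 26 in the fed and 29 in the deprived GCN2 KO cells. Kdm4b therefore had low peaks in every list when position was used in place of the name, but no pair of them from different lists was centered within 300 bp. No share of all genes by position is given, so nothing is read from their presence in every list. Kdm4c was named by 2 WT -Leu peaks that scored 23 each (rank 4264), 289656 and 384830 bp downstream of its TSS in intergenic sequence. Kdm4a was named by none, and the one peak inside it scored 23 in GCN2 KO -Leu, carried the name St3gal3 and was centered 284 bp from the nearest TGATGCAA.

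Kdm1a and the JmjC enzymes Kdm5a and Kdm5b remove methylation of lysine 4 on histone H3, and Kdm3a that of lysine 9. None of the 4 had a peak in the gene or within 10 kb of it in any list. The nearest peak to the 5′ end of Kdm1a lay 96.0 kb away in fed and 107 kb away in deprived WT cells, and 42.5 and 53.4 kb away in fed and deprived GCN2 KO cells, and these peaks scored 20 to 25. For Kdm3a the corresponding distances were 90.2, 214, 182 and 1163 kb, for Kdm5a 145, 45.2, 114 and 182 kb. For Kdm5b the nearest peaks were 89.6 to 242 kb away. The order of the lists differed from gene to gene, and the WT -Leu list, with the most peaks, was nearest for Kdm5a and Kdm5b but not for Kdm1a or Kdm3a.

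In all, the 7 peaks named Kdm2b, Kdm4b or Kdm4c scored 19 to 35 with a median of 23. They lay 7.65 to 385 kb from a TSS in the lists, had no counterpart within 300 bp in another list, and held no TGATGNAA. Most peaks of these lists lack the motif, which was held by 15.9% of all WT -Leu and 4.55% of all GCN2 KO -Leu peaks. Counterparts were also uncommon, with 308 sites common to the WT lists of 4850 and 6374 peaks. Nothing is read from these absences. The Kdm6b site in WT -Leu scored 1791 in a list where those of Kdm2b, Kdm4b and Kdm4c scored 19 to 23.

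The element TGATGCAA itself was not particular to Kdm6b. The 10 genes with 10 kb on each side cover 957 kb and hold 26 copies, of which 1, at Kdm6b, lay in a peak. Kdm4a had 6 copies, Kdm5b had 5, Kdm4b and Kdm5a had 3 each, Kdm6b, Kdm2b and Kdm4c had 2 each, and Kdm1a, Kdm2a and Kdm3a had 1 each. Across the genome 87106 copies were found, and 0.230% and 0.691% of them lay in a peak of fed and deprived WT cells, and 0.0735% and 0.0517% in one of fed and deprived GCN2 KO cells. Seen from the peaks, TGATGCAA was held by 3.91% and 9.05% of those of fed and deprived WT cells, and by 1.72% and 1.5% of those of fed and deprived GCN2 KO cells. RefSeq promoters, taken from 250 bases before to 50 bases after a start, held it in 0.895% of 32851 cases. Promoter sequences were matched for 6 of the 10 genes, namely Kdm1a, Kdm2b, Kdm3a, Kdm4a, Kdm4c and Kdm5b, and none of their promoters held TGATGCAA. The looser TGATGNAA occurred in the Kdm1a promoter and in 3.97% of all RefSeq promoters.

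**Figure D3:**
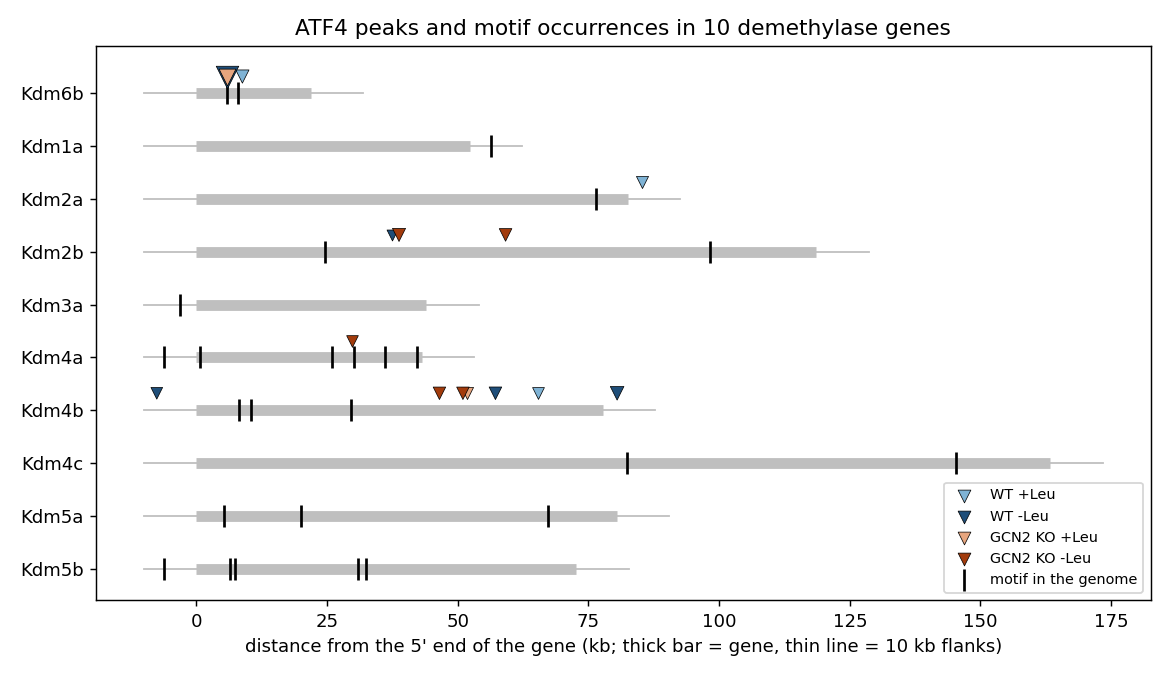
The 10 genes drawn from their 5′ end (thick bars, kb) with 10 kb flanks (thin lines), TGATGCAA copies as black ticks and peaks of any name as triangles colored by list, larger for a higher score. Of 26 copies, 1 coincides with peaks, at Kdm6b, where the triangles of 3 lists overlap.

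The promoter label is that of the lists, and the RefSeq model of the same name puts the Kdm6b site in intron 1. Among promoter-annotated peaks, the Kdm6b site was poor in CpG and of ordinary GC content. It held 2 CpG dinucleotides, a listed content of 0.667%, against a median of 2.67% over 119 promoter peaks in WT +Leu, 4% over 253 in WT -Leu and 3.33% over 83 in GCN2 KO +Leu. A content at or below that of Kdm6b was found for 11, 15 and 7 of these peaks, or 9.24%, 5.93% and 8.43%. Its GC content was 55.1% in WT +Leu and 55.5% in the other lists, beside a median of 56.1% in all 3. TGATGCAA occurred in 21 of the WT +Leu, 45 of the WT -Leu and 13 of the GCN2 KO +Leu promoter peaks, or 17.6%, 17.8% and 15.7%. Within the promoter peaks Kdm6b ranked 10 in WT +Leu, 2 in WT -Leu and 7 in GCN2 KO +Leu.

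**Figure D4:**
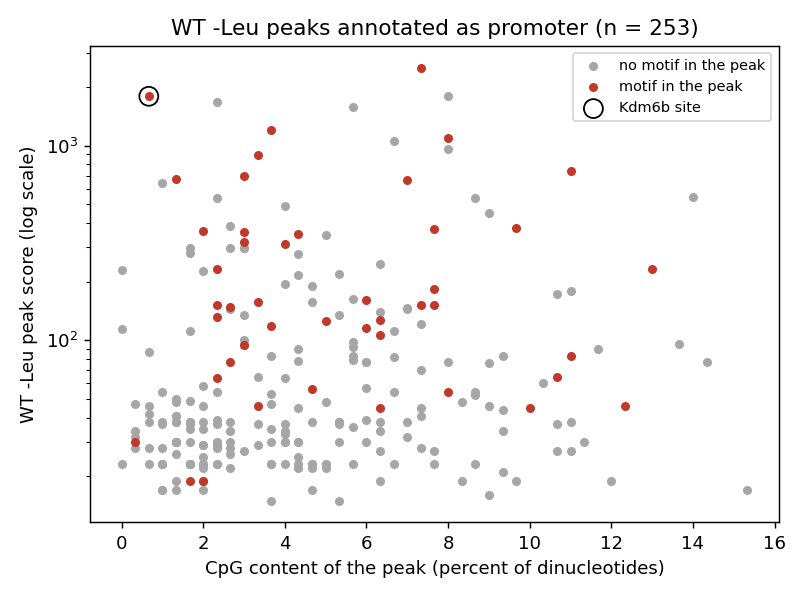
Peak score (logarithmic axis) against CpG content in percent for the 253 promoter-annotated WT -Leu peaks, colored by whether TGATGCAA is present and with the Kdm6b site circled. The Kdm6b site combines the second highest score, 1791, with a CpG content of 0.667%, which 15 of the 253 peaks match or fall below.

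For WT cells without against with leucine, the Kdm6b score was compared with those of all sites common to both WT lists (centers 300 bp or less apart). The WT -Leu score was 9.58 times the WT +Leu score at Kdm6b. Because the score has no stated scale, its ratios cannot be read as fold changes in binding. Over the 308 common sites the median of this ratio was 2.36, the quartiles were 1.27 and 4.56, the maximum was 26.0, and Kdm6b stood 18th. Among the 87 common sites that scored 100 or more in WT +Leu, the ratio was above 1 for 81, its median was 2.64 and its maximum 11.9, and Kdm6b stood 4th. The ratio is of scores that were not normalized between libraries, and both lists were called against input from fed cells according to their headers, so a difference in depth and a difference in binding cannot be told apart. Between the genotypes with leucine, the WT score at Kdm6b was 1.46 times the GCN2 KO score, near the median of 1.52 over 94 common sites. These lists came from 1 library each and were called against input of their own genotype. Depth, input and binding cannot be told apart there either.

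**Figure D5:**
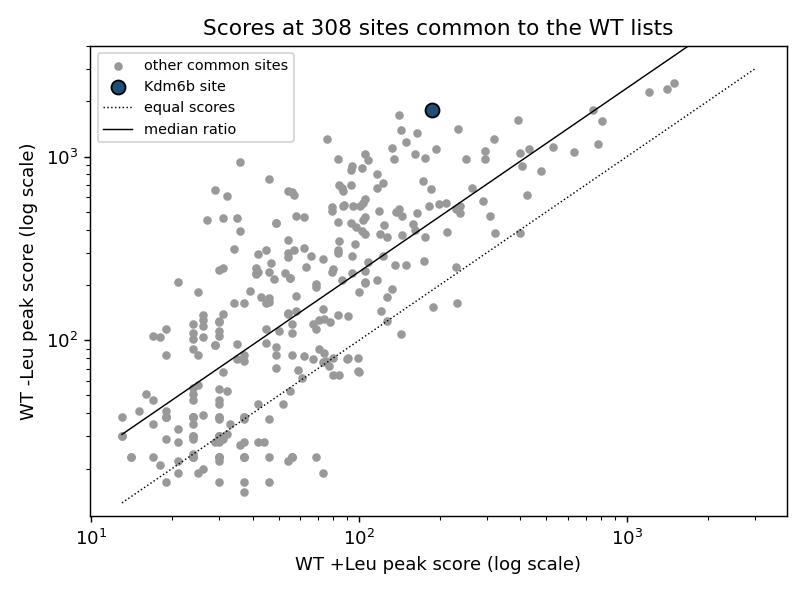
WT -Leu against WT +Leu peak score (both axes logarithmic) at the 308 sites common to the WT lists, with equal scores as a dotted line and the median ratio of 2.36 as a solid line. The Kdm6b site, at 187 and 1791, lies above the median line and near the upper edge of the points with a WT +Leu score of 100 or more.

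The missing GCN2 KO -Leu peak was set beside other strong sites. In GCN2 KO +Leu, 19 peaks scored at least as high as Kdm6b, with Kdm6b itself the lowest at 128. Picking sites by this score by itself favors lower scores in GCN2 KO -Leu. All 19 had a counterpart in WT +Leu and in WT -Leu, and 14 had one in GCN2 KO -Leu, with scores of 37 to 353 and a median of 158. The score was lower in GCN2 KO -Leu than in GCN2 KO +Leu at 13 of these 14, as for Chac1 (391 to 184) and Asns (184 to 41), and higher at Tgif1 (259 to 353). The 5 without one were Eif4ebp1 (211), Hspa9 (163), Pisd-ps3 (154), Serpinh1 (142) and Kdm6b (128), so Kdm6b shared the absence with 4 sites of higher score. In WT cells the score was higher without leucine at Eif4ebp1, Hspa9 and Serpinh1, but lower at Pisd-ps3 (99 to 68). Because of how the sites were picked, nothing is read from the falls and absences in GCN2 KO -Leu. Of the 35 WT +Leu peaks that scored 187 or more, all 35 had a counterpart in WT cells without leucine, and 23 and 18 had one in GCN2 KO cells with and without it. Overlap was far rarer over the whole WT +Leu list of 4850 peaks. It had 308 sites in common with WT -Leu and 94 with GCN2 KO +Leu, and no such count is given for GCN2 KO -Leu.

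The genes with a pattern most like that of Kdm6b were Acot2, Gm5627, Hspa9, Psat1 and Yars. Likeness was the Euclidean distance between log2 scores of the strongest peak within 5 kb of a TSS, over the 3 lists that hold a Kdm6b peak, for the 46 other genes with a peak in all 3. Acot2, an acyl-CoA thioesterase gene, was nearest at a distance of 0.51, with scores of 141 in WT +Leu, 1676 in WT -Leu and 104 in GCN2 KO +Leu. Gm5627 followed at 0.95 with scores of 319, 1238 and 143. Hspa9, which encodes a mitochondrial chaperone, was at 1.25 with scores of 108, 956 and 163. Psat1, of serine synthesis, was at 1.37 (398, 1050 and 161), and Yars, a tRNA synthetase gene, at 1.41 (432, 1098 and 115). In GCN2 KO -Leu, which the distance did not use, Acot2 scored 44, Gm5627 39, Psat1 66 and Yars 120, while Hspa9 had no peak within 5 kb. Of the 46 genes, 29 lacked such a peak in GCN2 KO -Leu, as Kdm6b did.

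Genes of the enzymes that work with or against these demethylases were taken from 5 further lists of 48 genes in all. Of these, 15 had a peak of their name in any list, a count for which no share of all genes is given. Among 15 other demethylase genes, 2 were named in each WT list, 2 in the GCN2 KO list with leucine and 0 in the one without. For 11 genes of PRC2, the complex that places the lysine 27 methylation Kdm6b removes, the counts were the same, 2, 2, 2 and 0. Lysine 4 methyltransferase genes gave 2, 3, 0 and 1 of 11, lysine 9 methyltransferase genes 1, 1, 0 and 0 of 6, and the 5 lysine 36 methyltransferase genes had no peak. The shares of all protein-coding genes named in these lists were, as above, 14.6%, 18.3%, 11.1% and 8.56%, and nothing is read from counts of this size. Within 5 kb of a TSS there were peaks at Kdm7a (89, rank 698, +1509 bp, intron 1) and at the PRC2-associated gene Phf1 (58, rank 1018, +447 bp), both in WT -Leu. The lists annotate the Phf1 peak as the end of a transcript. Scores of 100 or more were reached in WT -Leu by distal peaks named for the PRC2 cofactor Aebp2 (271 and 160, at 54.5 and 74.5 kb), the meiotic methyltransferase gene Prdm9 (256, at 10.6 kb) and the demethylase gene Phf2 (237, at 87.9 kb). None of these strong or near peaks held TGATGNAA and none recurred in another list. Of all WT -Leu peaks, 15.9% held TGATGNAA, and 308 sites were common to the WT lists of 4850 and 6374 peaks. Nothing is read from these absences. Among these genes and the 10 demethylase genes, the one site named for them in more than 1 list was that of Kdm6b.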

How the data were processed

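ATF4 ChIP-seq libraries (antibody sc-200) of WT and GCN2 KO MEFs ± leucine were analysed from the 4 deposited peak lists. Per the submitters' processing notes and the study's methods, the authors trimmed single-end reads, aligned them to mm10 with BWA 0.7.12, called peaks with MACS2 2.1.0 (FDR of 0.05, input of the same genotype as control), kept the summit ±150 bp and annotated peaks with HOMER 4.7. The deposited peak score is a whole number that is not normalized between libraries. The deposited CpG and GC contents are each a fraction of the peak and were converted to percent. Input libraries were not analysed here, and the depth of the libraries is not given in the lists.

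Peaks were taken by gene name and ranked by score, and lists were matched by centers 300 bp or less apart. Motifs were searched in GRCm38.p6, in which the GC content of all listed peaks on assembled chromosomes equalled the deposited one within 0.01 percentage points. Transcripts and promoters were those of RefSeq on that assembly. Repeat content is the soft-masked share of the reference. Python 3.11.15, numpy 2.4.6, pandas 2.3.3 and matplotlib 3.10.9 were used, and simulated peaks and motifs with known positions were used to test these steps.

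The 10 genes and the lists of 48 other genes were chosen with earlier results of these data known. Named were all 10 genes, genes of the other lists that had a score of 100 or more or a peak 5 kb or less from a TSS, neighbors whose name a peak within 20 kb of one of the 10 genes carries, and the 5 genes most like Kdm6b. The likeness was to be taken over 4 lists and was taken over 3, because Kdm6b had no GCN2 KO -Leu peak, and this was chosen after seeing the data. Genes compared with Kdm6b by rank or at strong sites were also named after their values were seen. With 1 library per condition no test was made.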

Additional observations from a re-analysis of the deposited data

Results flagged for a closer look

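At the Kdm6b site the listed peak scored higher without leucine in WT cells and was not listed without it in GCN2 KO cells. In WT cells the score was 9.58 times as high without leucine as with it (1791 against 187), and in GCN2 KO cells a peak that scored 128 with leucine was not listed without it. In WT cells this direction was common among strong sites. The score was higher without leucine at 81 of 87 common WT sites that scored 100 or more with it. Of the 19 strongest GCN2 KO +Leu sites, 13 scored lower and 5 had no peak in GCN2 KO -Leu. Those 19 were picked by a high GCN2 KO +Leu score, which by itself favors lower scores in the other list. Nothing is read from their direction. Each genotype had 1 library per condition, and the difference between genotypes was not tested. Scores were not normalized between libraries, so a difference in depth and a difference in binding cannot be told apart in either genotype. Their scale is not stated, so the ratio cannot be read as a fold change in binding. The unlisted position may also be bound below the reporting threshold.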

How the results depend on the processing

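Of 62 alternatives for 23 results, 44 left the value where it was or within 1.5 times it and 18 moved it. Keeping scores of 30 or more, or the 2672 strongest peaks, left 1 WT -Leu peak and 1 gene, Kdm6b, and scores of 30 or more left 1 gene in GCN2 KO -Leu. Assigning peaks by gene body and 10 kb on each side gave 3 genes in WT +Leu, 2 peaks and 2 genes in GCN2 KO +Leu, and 5 peaks in GCN2 KO -Leu. No share of all genes by that rule is given. A window of 10 kb around the TSS gave 2 genes in WT -Leu. Any RefSeq transcript start, an alternative added after seeing the data, gave 2 genes in WT -Leu and 1 in GCN2 KO -Leu. The rank of Kdm6b became 22, 2 and 12 in WT +Leu, WT -Leu and GCN2 KO +Leu among genes by their strongest peak within 5 kb, and 10, 2 and 7 among promoter peaks, where fewer entries are ranked. The scores of the Kdm6b site, its recurrence in 3 lists and its motif did not move under any alternative computed for them. These alternatives could not have moved them. The strongest Kdm6b peak is also the nearest to the TSS, its centers lie within 19 bp, and its motif is TGATGCAA near the center. No paired analysis was possible because each condition had 1 library and no test was made. Without depth or replicates, the error of a score is unknown, and a position without a listed peak may be bound below the reporting threshold.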
